A study of Homo sapiens with 12 samples.

Results

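The genes described here are the isozymes of glycolysis and the carriers and regulators around it: 8 glucose transporters of the SLC2A family, 11 genes of the upper pathway down to triose phosphate, 10 genes of the lower pathway down to lactate, and 6 genes that set the level of fructose bisphosphates. They were taken from a fixed list of 35 symbols, each matched to an Ensembl gene ID, out of 60656 IDs in the count table. Of the 35, 33 passed the low-count filter, and HK3, a hexokinase known from blood cells, and PFKFB1, the liver form of phosphofructokinase-2, did not. HK3 had 0 to 3 counts per library and PFKFB1 0 to 11.

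The cells were the established human lines SKMEL-5, A375 and A2058, metastatic melanoma by their labels. Each line was grown in hypoxia, at 1% oxygen, and in normoxia, at atmospheric oxygen, which was the study's reference. There were 2 libraries for each line and condition, 12 in all, described in the design text as biological duplicates. The labels give no engineered genetic change and no drug for any group. Values of a pair are given as library 1 and then library 2, and p-values measure the spread between these duplicates.

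Glycolysis splits glucose into pyruvate in the cytosol and makes ATP without oxygen, and lactate dehydrogenase then turns pyruvate into lactate to recover the NAD that the pathway uses up. Most steps have several isozymes, encoded by separate genes that differ in tissue, in affinity and in regulation. Many of these genes are textbook targets of the hypoxia-inducible factors, which bind a short DNA element with the core ACGTG or GCGTG, and melanoma cells are known for high glycolytic rates even in air.

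Library totals ran from 33831569 to 54202819 counts. In each line 1 hypoxic library stood apart on the first principal component, which held 47.1% of the variance within lines: hypoxia 2 of A2058 (72.7), hypoxia 1 of A375 (132) and hypoxia 1 of SKMEL-5 (108), with every other library below 0. The normoxia 1 libraries held more of the hypoxia marker CA9 than normoxia 2. CA9 rose in hypoxia by 6.77 ± 1.18 (SE) on the log2 scale, VEGFA by 1.82 ± 0.26 and NDRG1 by 4.13 ± 0.56. The neural crest factor SOX10 was at 765 to 1684 CPM over the 12 libraries. TYR and MLANA, which define pigment cells, were present in A2058 and had 0 counts in all libraries of A375 and SKMEL-5. PMEL and DCT were at most 2.64 CPM in A375 and SKMEL-5 and at least 358 CPM in A2058. MITF was at 161 to 539 CPM in A2058, 91.3 to 173 CPM in SKMEL-5 and 17.2 to 28.3 CPM in A375. It thus differed between A375 and SKMEL-5 in every library. S100B was at 16.8 to 231 CPM over the 12 libraries. A375 and SKMEL-5 libraries correlated at 0.912 to 0.990 with each other over genes, as high as the 0.917 to 0.982 within A375, and whether the lines are independent was not tested. The summed level of 5 fibroblast markers was 13.6 to 102 CPM in hypoxia and 9.23 to 26.1 CPM in normoxia, with A2058 at 58.6 and 102 against 24.4 and 26.1 CPM. Which marker was highest differed between libraries. COL1A1 reached 58.6 CPM and LUM 35.04 CPM, both in A2058 hypoxia 2, while COL1A2 was at most 1.24 CPM. In A2058 normoxia 1 LUM was above COL1A1. In every library of A375 and SKMEL-5 the highest was PDGFRB, at up to 12.6 CPM. For 4 keratinocyte markers the sum was 51.6 to 144 CPM in hypoxia and 43.3 to 103 CPM in normoxia, most of it KRT10 (up to 139 CPM), with KRT14 at up to 18.9 CPM and KRT5 at most 0.135 CPM. For 4 blood markers it was 1.18 to 15.2 CPM in hypoxia and 0.551 to 10.3 CPM in normoxia, most of it LYZ, with PTPRC at most 0.259 CPM. No marker of these 3 lists was at 0 in all libraries. The part of these differences in the results was not tested.

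The DNA upstream of the genes was searched for the cores ACGTG and GCGTG on both strands, in the 250 bases before the start in RefSeq's GRCh38.p14 table. Only the first listed start of each gene was used, and other starts were not searched. CACGTG reads the same on both strands and counts as ACGTG on each. SLC2A3, SLC2A4 and PFKFB2 had no entry. At least 1 core lay upstream of 19 of the other 32 genes (59.4%), against 43.1% of all 27305 promoters of this length. ACGTG was upstream of 11 of the 32 (34.4%, against 18.7% of all) and GCGTG also of 11 (34.4%, against 31.9%). A match describes letters only. The sequences below, 5′ to 3′ on the gene's strand with both cores in capitals, are those of PGK1, LDHA and HK2, which rose in hypoxia and hold 3 separate matches each, of ALDOC, which had the largest log2 difference and holds 4, and of PFKP and LDHB, which hold none. PFKP rose, and LDHB is the isozyme partner of LDHA. SLC2A6, whose mean difference in hypoxia was below 0, also holds 3 separate matches and is not printed. The windows are chrX:78103998-78104247 (plus strand) for PGK1, chr11:18394313-18394562 (plus) for LDHA, chr2:74833877-74834126 (plus) for HK2, chr17:28576896-28577145 (minus) for ALDOC, chr10:3067720-3067969 (plus) for PFKP and chr12:21657843-21658092 (minus) for LDHB.
PGK1: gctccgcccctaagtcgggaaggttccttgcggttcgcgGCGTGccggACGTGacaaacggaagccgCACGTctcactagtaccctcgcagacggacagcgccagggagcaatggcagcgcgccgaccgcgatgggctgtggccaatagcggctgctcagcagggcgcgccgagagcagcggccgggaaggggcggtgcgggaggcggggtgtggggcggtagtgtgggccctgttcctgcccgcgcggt
LDHA: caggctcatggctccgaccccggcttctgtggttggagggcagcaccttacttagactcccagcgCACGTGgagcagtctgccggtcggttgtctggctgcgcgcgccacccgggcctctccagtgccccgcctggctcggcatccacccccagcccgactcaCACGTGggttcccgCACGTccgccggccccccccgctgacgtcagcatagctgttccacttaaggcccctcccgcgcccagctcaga
HK2: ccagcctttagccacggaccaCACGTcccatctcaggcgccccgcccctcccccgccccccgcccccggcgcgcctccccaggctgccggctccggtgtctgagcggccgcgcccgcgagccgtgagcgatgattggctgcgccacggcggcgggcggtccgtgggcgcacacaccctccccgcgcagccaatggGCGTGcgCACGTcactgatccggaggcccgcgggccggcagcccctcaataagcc
ALDOC: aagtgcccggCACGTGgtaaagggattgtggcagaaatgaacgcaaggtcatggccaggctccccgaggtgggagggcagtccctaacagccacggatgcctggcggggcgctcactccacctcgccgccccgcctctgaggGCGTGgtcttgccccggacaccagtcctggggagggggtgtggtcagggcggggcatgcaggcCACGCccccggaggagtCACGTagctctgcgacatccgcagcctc
PFKP: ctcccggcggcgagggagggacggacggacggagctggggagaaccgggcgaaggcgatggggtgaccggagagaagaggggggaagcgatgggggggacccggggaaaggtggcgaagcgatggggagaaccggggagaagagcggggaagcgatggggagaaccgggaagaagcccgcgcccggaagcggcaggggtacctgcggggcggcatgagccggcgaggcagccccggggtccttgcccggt
LDHB: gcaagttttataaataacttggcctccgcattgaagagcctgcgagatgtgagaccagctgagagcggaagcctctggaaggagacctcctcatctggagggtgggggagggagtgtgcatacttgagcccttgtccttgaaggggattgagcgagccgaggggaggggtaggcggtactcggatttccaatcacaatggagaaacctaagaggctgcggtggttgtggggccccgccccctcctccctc

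The first comparison asked which of the genes changed in 1% oxygen against atmospheric oxygen. SLC2A3, SLC2A14, HK1, HK2, PFKL, PFKP, PGK1 and LDHA rose in the mean of the 3 lines, by 1.12 to 3.002 on the log2 scale, and no gene of the list fell. These 8 of 33 (edgeR's quasi-likelihood test, adjusted p under 0.05 over 19636 genes) stand beside 0.978% of all tested genes that rose. None of the 33 fell in edgeR's test, with 0.143% of all genes lower, and limma-voom and DESeq2 also called 0. At an unadjusted p under 0.05, 21 of the 33 were higher and 0 lower, against 12% and 6.92% of all genes. The median log2 difference of the 33 was 1.19, against 0.02 over all tested genes, and 29 of the 33 were above 0. In bulk RNA, fewer cells of a type and less RNA per cell cannot be told apart, and all levels are relative to the other RNA of the library.

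Separation of the libraries gave a wider group. In 16 genes the hypoxic libraries lay above the normoxic ones in every line, where 4.86% of all genes did so, and in 0 they lay below in every line (2.79% of all genes). These were SLC2A3, SLC2A14, HK1, HK2, GPI, PFKL, PFKP, ALDOA, ALDOC, TPI1, GAPDH, PGK1, ENO1, ENO2, LDHA and PFKFB4. In 13 of them, all but HK1, PFKL and PFKFB4, the lowest of the 6 hypoxic libraries was above the highest of the 6 normoxic libraries, as in 1.45% of all genes, with 0 the other way (0.677% of all genes). DESeq2 called 18 genes higher in the 3-line mean (5.65% of all genes), which were these 16 with SLC2A1 and PGAM1.

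The count of 8 rests on the choice of libraries. Without the 3 hypoxic libraries that stood apart it was 1 (SLC2A3), and without the 3 normoxia 1 libraries 0. The mean of A2058 and A375 alone gave 2 (SLC2A3 and PGK1), with 34 of all 19636 genes higher, against 192 in the main fit. With SKMEL-5 in place of A375 it was 0, with 24 of all genes. With 1 library left out, it was 0 without A375 normoxia 1, A375 normoxia 2 or SKMEL-5 normoxia 2, 1 without SKMEL-5 normoxia 1, 2 without A2058 normoxia 2, 3 without A2058 hypoxia 2, 4 without A2058 normoxia 1 and 15 without A375 hypoxia 2. In each fit named here, calls over all genes moved the same way as the list's count. Nothing particular to these genes is therefore read from the changes in that count. Over all fits run, the log2 difference turned its sign in 6 of the 33 genes (SLC2A4, HKDC1, PFKM, ENO3, LDHB and FBP1), none of them called.

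Within single lines, edgeR called 0 of the 33 in A2058, A375 or SKMEL-5, in either direction. Of all genes, 0.00509% were called higher and 0.00509% lower in A2058 and 0% in the other lines. At an unadjusted p under 0.05, 18 of the 33 were higher for A2058, 16 for A375 and 14 for SKMEL-5, against 5.62%, 4.51% and 4.44% of all genes. In the other direction there were 0 in each line, against 3.54%, 1.09% and 2.1% of all genes. DESeq2 called 8 higher for A2058 (1.26% of all genes), 7 for A375 (0.535%) and 3 for SKMEL-5 (0.484%), and limma-voom 0. SLC2A3, PGK1 and LDHA were in all 3 of DESeq2's lists.

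**Figure D1:**
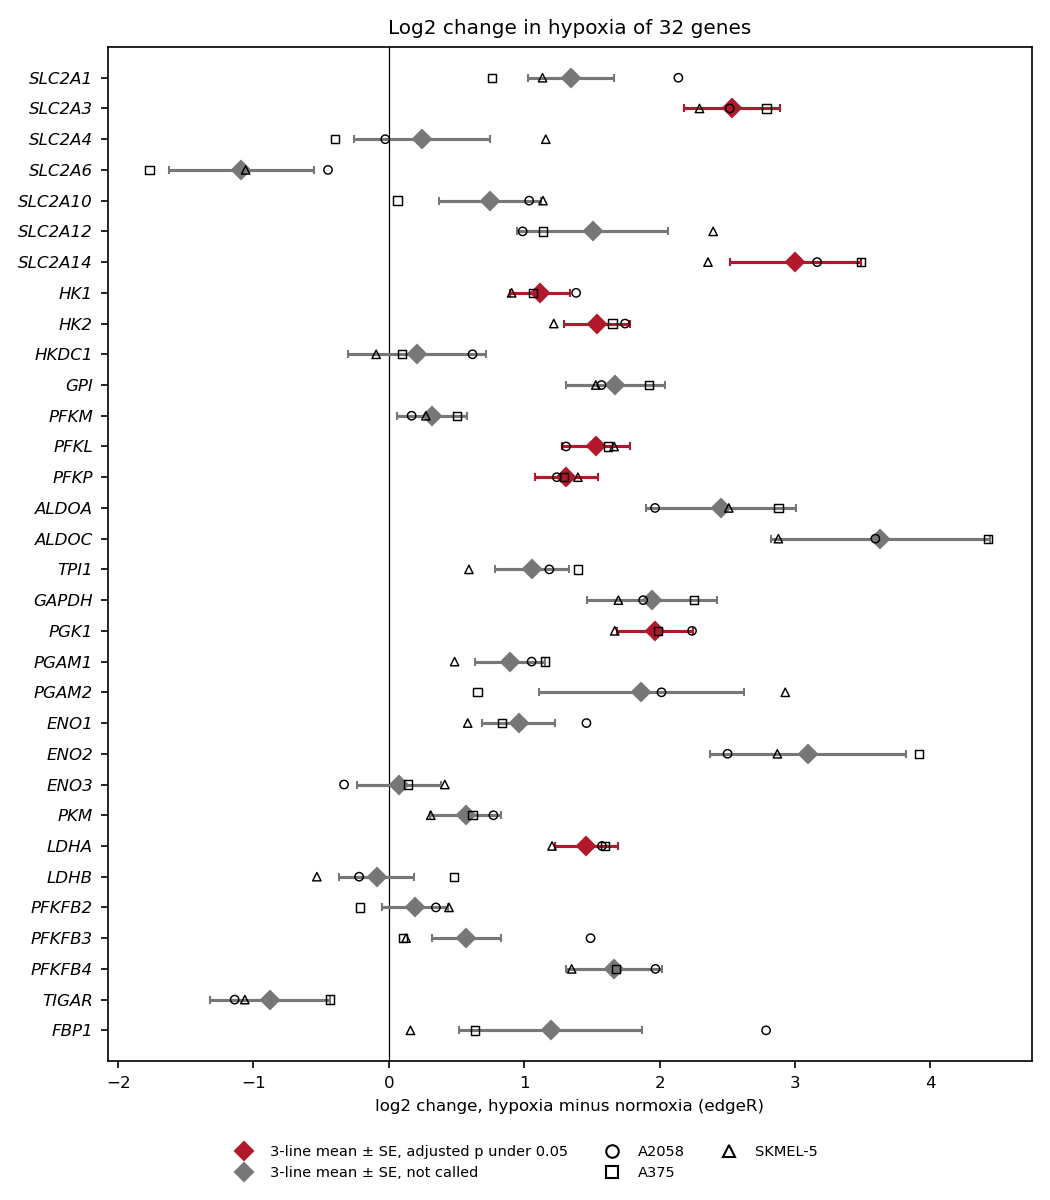
Log2 difference between hypoxia and normoxia (horizontal axis, edgeR) for 32 of the 33 tested genes, with the 3-line mean and its SE as filled diamonds and single lines as open symbols. The 8 red diamonds passed an adjusted p under 0.05. SLC2A8 is left out because it had 0 counts in A375 and SKMEL-5. SLC2A3, PGK1 and LDHA have all 3 lines well to the right of 0, and SLC2A6, LDHB and TIGAR have means to its left.

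Among the glucose transporters, SLC2A3 and SLC2A14 rose. SLC2A3 encodes GLUT3, a transporter of high affinity best known from neurons (ENSG00000059804.16, chromosome 12, 7919230 to 7936275 in GRCh38). Its hypoxic libraries stood at 128 and 299 CPM in A2058, 410.2 and 114 CPM in A375 and 225 and 121 CPM in SKMEL-5. In normoxia SLC2A3 was at 42.5 and 32.1 CPM, 37.8 and 37.9 CPM and 36.7 and 33.99 CPM in these lines. All 6 hypoxic libraries lay above all 6 normoxic ones, and the highest were those that stood apart. The rise was 2.53 ± 0.35 on the log2 scale (adjusted p = 0.0113), 5.79-fold, and 1.69 without the libraries that stood apart, where it was still called.

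SLC2A14, a near copy of SLC2A3 on the same chromosome that encodes GLUT14 (ENSG00000173262.11, chromosome 12, 7812512 to 7891148), followed at a far lower level. It stood at 2.32 and 5.37 CPM in A2058, 7.24 and 1.36 CPM in A375 and 2.72 and 1.53 CPM in SKMEL-5 in hypoxia. In normoxia SLC2A14 was at 0.385 and 0.468 CPM, 0.338 and 0.426 CPM and 0.336 and 0.486 CPM in these lines. The groups did not overlap, with a rise of 3.002 ± 0.48 (adjusted p = 0.0186), and of 2.03 without the libraries that stood apart, where it was not called. Of its 50-base words 16.5% are shared with other genes, mostly SLC2A3, so reads of the pair could have been split between them, and the SLC2A14 values are uncertain.

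SLC2A1, which encodes GLUT1, the transporter of most dividing cells, had the highest level per kilobase of exon in the family in every library. It stood at 442 and 908 CPM in A2058, 372 and 586 CPM in A375 and 386 and 622 CPM in SKMEL-5 in hypoxia. In normoxia SLC2A1 was at 119.5 and 187 CPM, 170.3 and 394 CPM and 167 and 292 CPM in these lines. Libraries overlapped in A375, where normoxia 2 was above hypoxia 1, and were separate in A2058 and SKMEL-5. The 3-line difference of 1.35 ± 0.32 did not pass (adjusted p = 0.0700). The line differences were 2.14, 0.76 and 1.13 in A2058, A375 and SKMEL-5.

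The other transporters were low. SLC2A6, a lysosomal member (GLUT6), was at 0.751 to 16.9 CPM in hypoxia and 8.88 to 17.2 CPM in normoxia, with a difference of -1.09 ± 0.54 (adjusted p = 0.294). Its hypoxic pair was below the normoxic pair in A375 and SKMEL-5 and overlapped it in A2058. SLC2A10 (GLUT10) was at 1.26 to 3.65 CPM against 1.07 to 2.85 CPM, with a difference of 0.75 ± 0.37 (adjusted p = 0.301). For SLC2A12 (GLUT12) the difference was 1.51 ± 0.56 (adjusted p = 0.191), and for SLC2A4, which encodes the insulin-responsive GLUT4 of muscle and fat, 0.24 ± 0.50 (adjusted p = 0.833). Per kilobase, SLC2A1 and SLC2A3 together held most of the family's signal. SLC2A1 took 53.4 to 85.4% in hypoxia and 67.4 to 90.2% in normoxia, and SLC2A3 took 12.7 to 45.2% and 6.65 to 18.4%.

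The hexokinases trap glucose as glucose 6-phosphate. HK1, the form of most tissues (ENSG00000156515.23, chromosome 10, 69269984 to 69401884), stood in hypoxia at 605 and 1029 CPM in A2058, 415 and 439 CPM in A375 and 307 and 468 CPM in SKMEL-5. In normoxia HK1 was at 336 and 290.4 CPM, 175 and 233 CPM and 199 and 214 CPM in these lines. The groups were separate in each line but not across lines, since normoxic A2058 library 1 was above hypoxic SKMEL-5 library 1. HK1 rose by 1.12 ± 0.22 (adjusted p = 0.0428), the smallest of the 8 rises.

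HK2, the inducible form of muscle and many tumours (ENSG00000159399.10, chromosome 2, 74833981 to 74893359), rose more. It stood at 243 and 524 CPM in A2058, 409.6 and 329 CPM in A375 and 250.1 and 271 CPM in SKMEL-5 in hypoxia. In normoxia HK2 was at 141 and 87.8 CPM, 103 and 133 CPM and 115 and 109 CPM in these lines. All 6 hypoxic libraries were above all 6 normoxic libraries. The rise was 1.54 ± 0.24 (adjusted p = 0.0168), 2.90-fold. Per kilobase, HK2 made up 29.3 to 50.4% of the hexokinase signal in hypoxia and 23.7 to 37.0% in normoxia, and HK1 most of the rest. The log2 ratio of HK2 to HK1 was higher in hypoxia by 0.34, 0.58 and 0.34 in A2058, A375 and SKMEL-5, with an overlap of libraries in A2058. HKDC1, a protein with hexokinase domains, was at most 13.7 CPM, with a difference of 0.21 ± 0.51 (adjusted p = 0.868).

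GPI, which turns glucose 6-phosphate into fructose 6-phosphate, was higher in all hypoxic libraries without passing the test. It stood at 933 and 2510.1 CPM in A2058, 3025 and 1063 CPM in A375 and 2251 and 1138 CPM in SKMEL-5. In normoxia GPI was at 725 and 434 CPM, 439 and 639.6 CPM and 597 and 578 CPM in these lines. The difference of 1.67 ± 0.36 had an adjusted p = 0.0568, and it was 0.85 without the hypoxic libraries that stood apart.

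Phosphofructokinase-1 commits the sugar to glycolysis, and its platelet and liver subunits rose. PFKP (ENSG00000067057.17, chromosome 10, 3066333 to 3137712) had the highest level per kilobase of the subunits in every library. It stood at 492 and 916 CPM in A2058, 662 and 486 CPM in A375 and 618 and 493 CPM in SKMEL-5 in hypoxia. In normoxia PFKP was at 347 and 248 CPM, 214 and 254 CPM and 219.8 and 202 CPM in these lines. The groups did not overlap, and the rise of 1.31 ± 0.23 (adjusted p = 0.0267) was close between lines, at 1.24, 1.296 and 1.40.

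PFKL (ENSG00000141959.17, chromosome 21, 44300051 to 44327376) stood at 346 and 578 CPM in A2058, 392 and 175 CPM in A375 and 266 and 195 CPM in SKMEL-5 in hypoxia. In normoxia PFKL was at 194 and 179 CPM, 89.1 and 95.6 CPM and 70.4 and 75.2 CPM in these lines. Every line was separate, and the ranges met only through A2058, whose normoxic libraries were above the lowest hypoxic library of A375. PFKL rose by 1.53 ± 0.25 (adjusted p = 0.0191).

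The muscle subunit PFKM did not pass the test. It was at 107 and 188 CPM in A2058, 231 and 109 CPM in A375 and 183 and 101 CPM in SKMEL-5 in hypoxia. In normoxia PFKM was at 152 and 111 CPM, 119.6 and 119 CPM and 119 and 116 CPM in these lines. Libraries overlapped within every line, and the difference was 0.32 ± 0.26 (adjusted p = 0.521). Without the libraries that stood apart it was -0.24. The log2 ratio of PFKM to PFKL was lower in hypoxia by -1.13 for A2058, -1.10 for A375 and -1.44 for SKMEL-5, with no overlap of libraries in any line. Per kilobase PFKM took 9.19 to 14.8% of the signal in hypoxia and 17.5 to 23.9% in normoxia. The ratio of PFKP to PFKL differed by -0.07, -0.22 and -0.26.

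**Figure D2:**
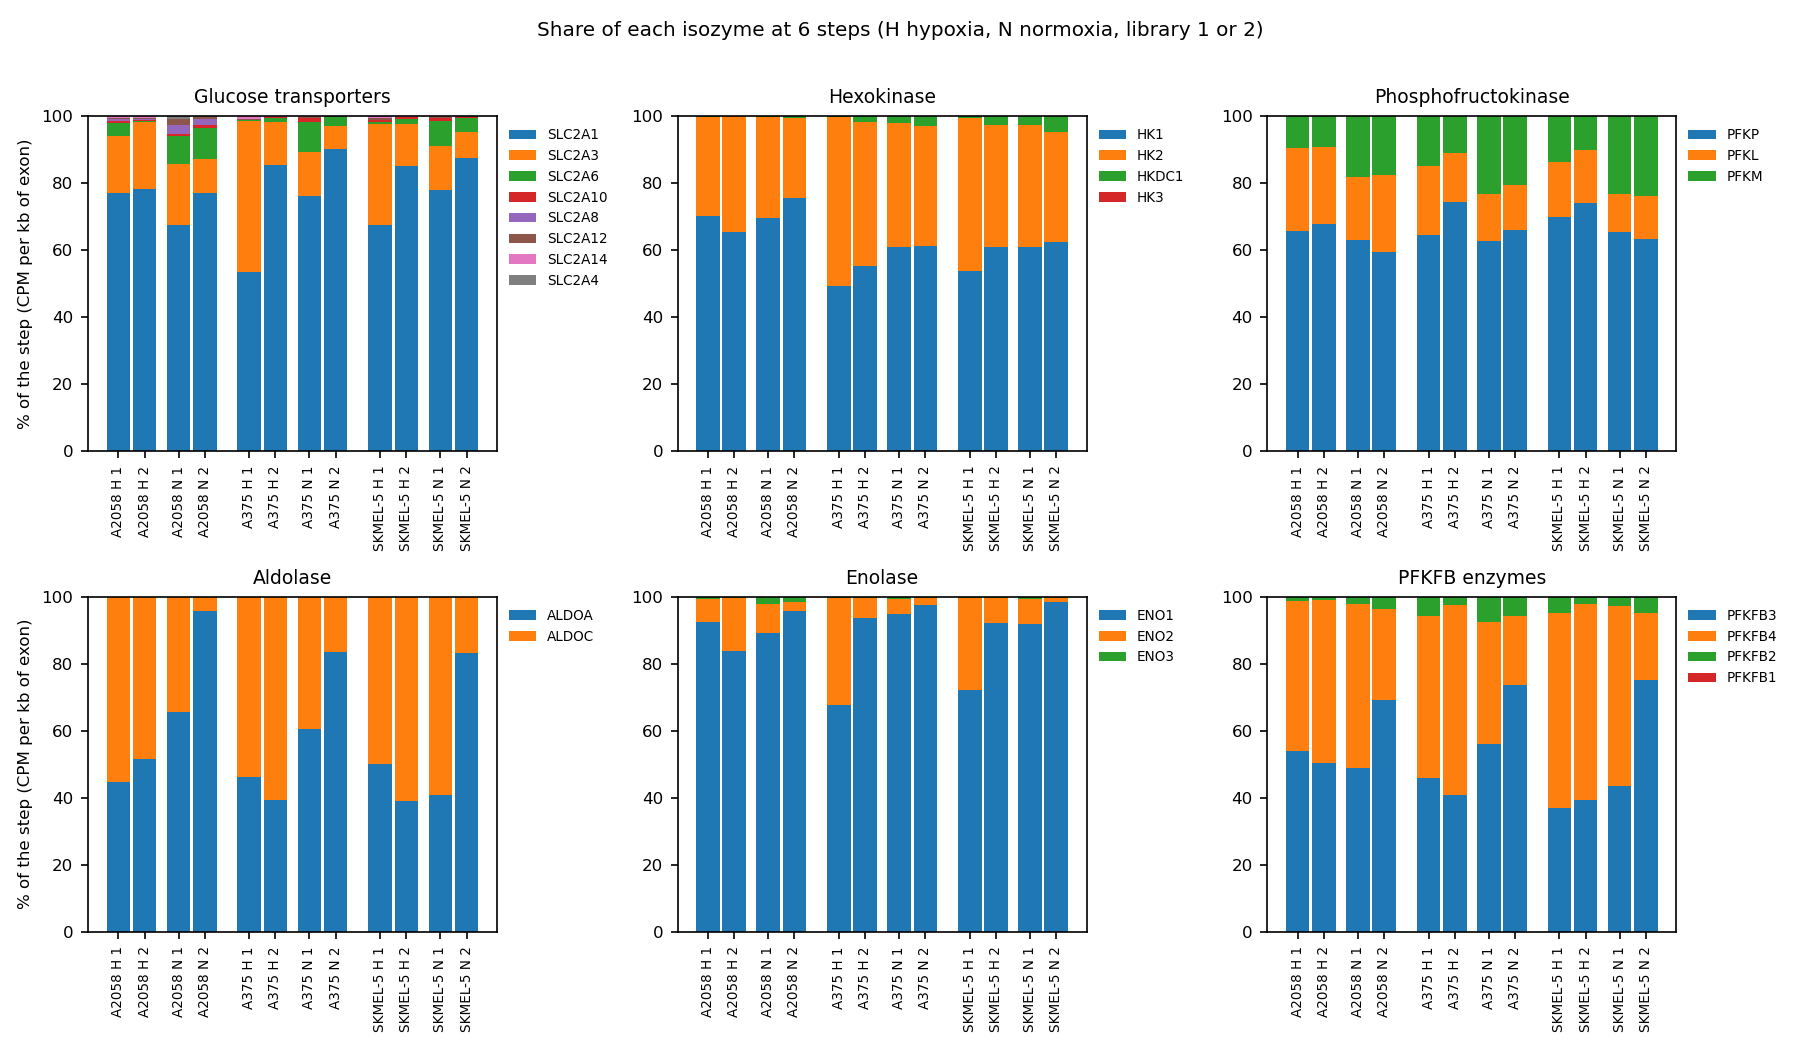
Share of each isozyme at 6 steps in the 12 libraries, as a percent of the summed CPM per kilobase of exon of the step (vertical axis, from 0 to 100). H is hypoxia and N normoxia, and bars stack to the whole step. PFKM takes 9.19 to 14.8% of its step in hypoxia and 17.5 to 23.9% in normoxia, and ENO2 reaches 32.04% in A375 hypoxia 1.

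Aldolase cleaves fructose bisphosphate. ALDOC, the brain form, had the largest log2 difference of the list and the widest spread. It stood at 174 and 598 CPM in A2058, 1553 and 304 CPM in A375 and 999 and 318 CPM in SKMEL-5 in hypoxia. In normoxia ALDOC was at 60.3 and 3.61 CPM, 65.1 and 21.5 CPM and 159 and 20.8 CPM in these lines. All hypoxic libraries were above all normoxic ones, but normoxia 1 was far above normoxia 2 in every line. The difference of 3.63 ± 0.81 did not pass (adjusted p = 0.0606). It was 2.34 without the outlying hypoxic libraries and 5.74 without the normoxia 1 libraries, and limma-voom and DESeq2 called it.

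ALDOA, the form of muscle and most cells, stood at 188 and 851 CPM in A2058, 1791 and 262 CPM in A375 and 1345 and 271 CPM in SKMEL-5 in hypoxia. In normoxia ALDOA was at 154 and 112 CPM, 133 and 146 CPM and 146 and 138 CPM in these lines. All hypoxic libraries were above all normoxic ones, and in each line the library that stood apart was far above the other. The difference was 2.45 ± 0.55 (adjusted p = 0.0632), and 0.76 without the libraries that stood apart. The log2 ratio of ALDOC to ALDOA was higher in hypoxia by 2.84, 1.90 and 1.21 in A2058, A375 and SKMEL-5, with an overlap in SKMEL-5, where normoxia 1 was high. In GENCODE 29, 42.3% of ALDOA's exon bases lie under a second gene on the same strand, ENSG00000285043, which holds 2276 counts. The ALDOA level and every share that uses it are therefore uncertain.

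TPI1, which interconverts the triose phosphates, was at 1749 and 2789 CPM in A2058, 2449 and 1911 CPM in A375 and 1383 and 1872 CPM in SKMEL-5 in hypoxia. In normoxia TPI1 was at 1356 and 639.7 CPM, 785 and 869 CPM and 1275 and 886 CPM in these lines. The hypoxic libraries were all higher, by 1.06 ± 0.27 in the 3-line mean (adjusted p = 0.0863). Of its 50-base words 12.6% are shared, mostly with the pseudogene TPI1P1.

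**Figure D3:**
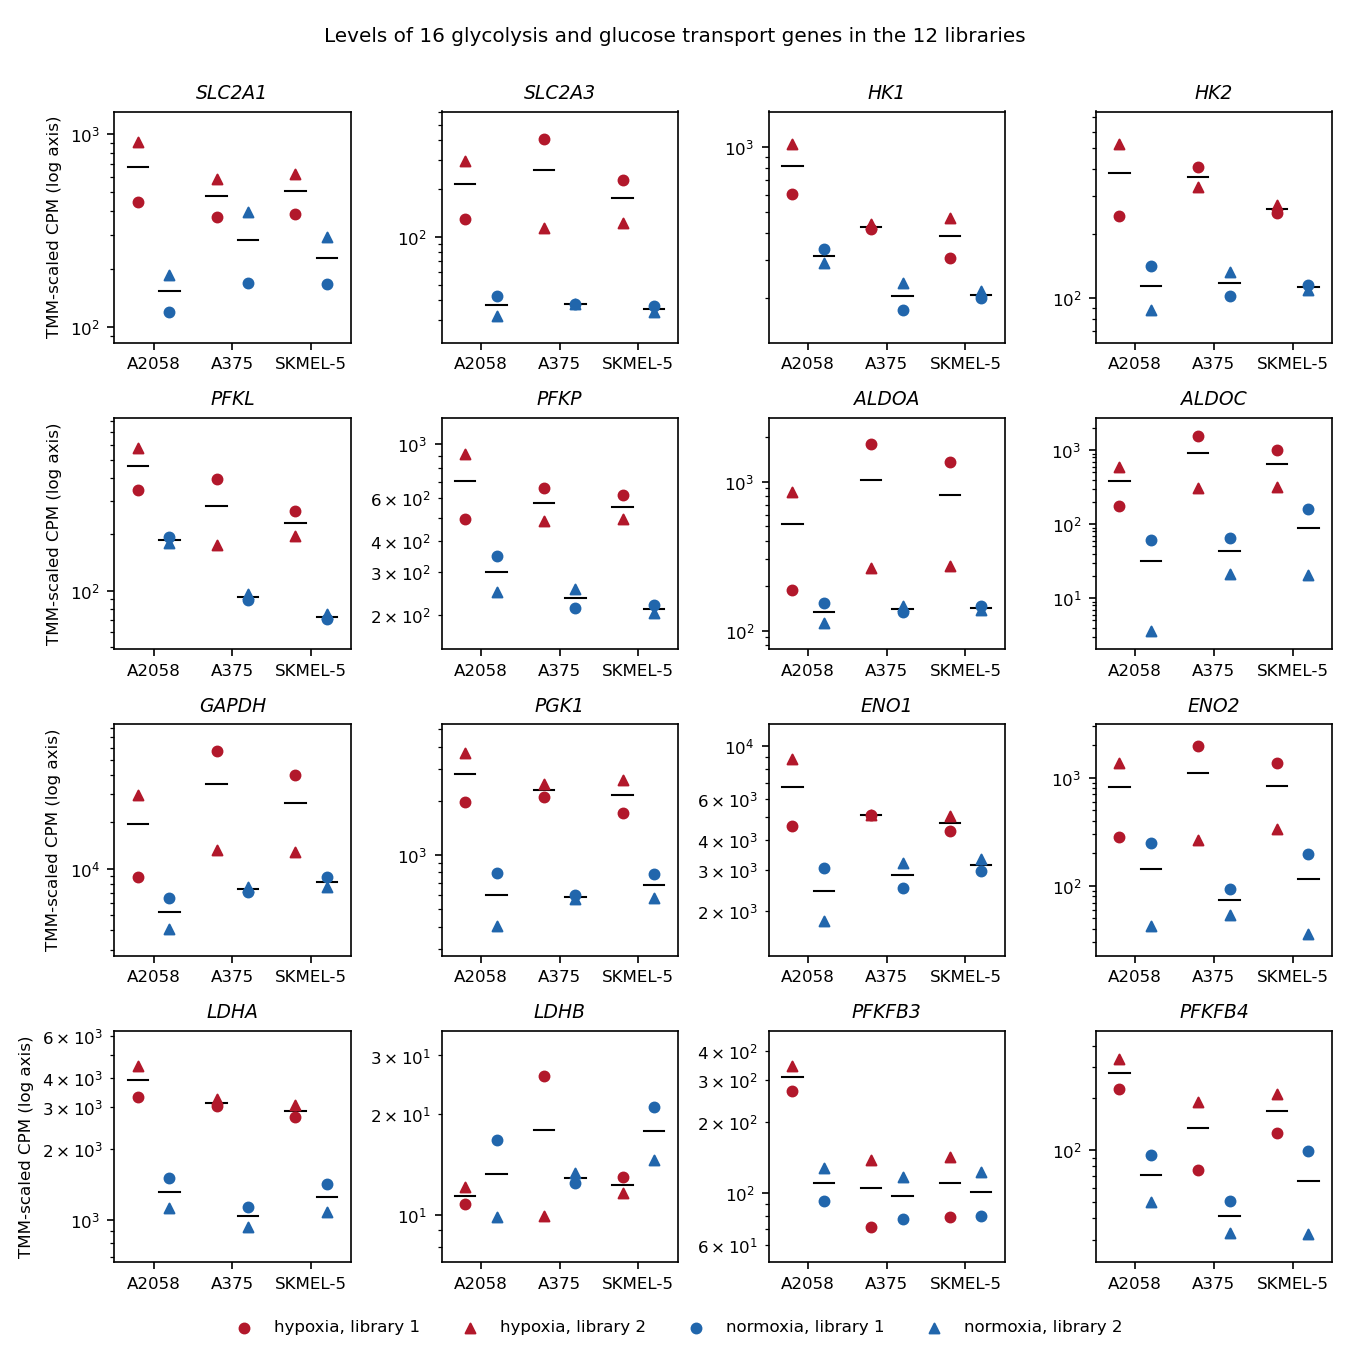
TMM-scaled CPM (log axis) of 16 genes in each library, hypoxia in red left of normoxia in blue, with circles for library 1, triangles for library 2 and a bar at the mean of the pair. PGK1 and LDHA are apart between conditions in every line and the pairs of LDHA lie close together, whereas ALDOA, GAPDH and ENO2 spread widely within hypoxia and ALDOC within both conditions.

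In the lower pathway PGK1 and LDHA rose. PGK1, which makes the first ATP of the pathway (ENSG00000102144.15, chromosome X, 77910739 to 78129296), stood at 1976 and 3682 CPM in A2058, 2109.7 and 2499 CPM in A375 and 1724 and 2602 CPM in SKMEL-5. In normoxia PGK1 was at 798 and 401 CPM, 597 and 566 CPM and 787 and 574 CPM in these lines. The groups were wide apart, and the libraries that stood apart were not the higher ones in A375 and SKMEL-5. The rise was 1.96 ± 0.28 (adjusted p = 0.0115), 3.90-fold, and 1.90 without the libraries that stood apart, where it was not called.

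LDHA, the subunit that favours lactate formation (ENSG00000134333.14, chromosome 11, 18394388 to 18408425), stood in hypoxia at 3302 and 4494 CPM in A2058, 3034 and 3232 CPM in A375 and 2721 and 3055 CPM in SKMEL-5. In normoxia LDHA was at 1498 and 1120.3 CPM, 1136 and 934 CPM and 1423 and 1082 CPM in these lines. The groups did not overlap, and the hypoxic pair differed little within each line. LDHA rose by 1.46 ± 0.23 (adjusted p = 0.0168), 2.75-fold, and by 1.40 without the libraries that stood apart, where it was not called.

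LDHB, the heart subunit, which favours pyruvate, did not pass the test. It was at 10.7 and 12.1 CPM in A2058, 26.1 and 9.88 CPM in A375 and 12.97 and 11.6 CPM in SKMEL-5 in hypoxia. In normoxia LDHB was at 16.7 and 9.86 CPM, 12.4 and 13.3 CPM and 21.0 and 14.6 CPM in these lines. The pairs overlapped in A2058 and A375 and were lower in hypoxia in SKMEL-5, and the difference was -0.09 ± 0.28 (adjusted p = 0.901). The log2 ratio of LDHA to LDHB was 6.86 to 8.54 in hypoxia and 6.08 to 6.83 in normoxia, higher in hypoxia by 1.74, 1.28 and 1.73 in A2058, A375 and SKMEL-5, with no overlap. Of LDHB's exon bases 33.4% lie under a same-strand gene, ENSG00000285854, which holds 4 counts. Depending on how shared reads were treated the LDHB level could be too low, so the size of the ratio is uncertain.

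GAPDH, the dehydrogenase of glyceraldehyde 3-phosphate and a common reference gene, had the highest level per kilobase of the 35 genes in every library. It stood at 8846 and 29974 CPM in A2058, 57225 and 13124 CPM in A375 and 40276 and 12872 CPM in SKMEL-5 in hypoxia. In normoxia GAPDH was at 6468 and 4089 CPM, 7111 and 7635 CPM and 8805 and 7609 CPM in these lines. Hypoxic libraries were all higher, with a difference of 1.94 ± 0.48 that did not pass (adjusted p = 0.0811). Without the libraries that stood apart it was 0.72.

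ENO2, the neuronal enolase, resembled ALDOC in its spread. It stood at 282 and 1353 CPM in A2058, 1962 and 263 CPM in A375 and 1354 and 338 CPM in SKMEL-5 in hypoxia. In normoxia ENO2 was at 247 and 42.1 CPM, 93.9 and 53.7 CPM and 195 and 36.0 CPM in these lines. The lowest hypoxic value exceeded the highest normoxic one by little, and normoxia 1 was above normoxia 2 in each line. The difference was 3.10 ± 0.72 (adjusted p = 0.0693), and 1.43 without the libraries that stood apart. ENO2 took 5.94 to 32.04% of the enolase signal per kilobase in hypoxia and 1.31 to 8.88% in normoxia.

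ENO1, the form of most tissues and the highest enolase per kilobase in all 12 libraries, was at 4598 and 8806 CPM in A2058, 5110.4 and 5109.6 CPM in A375 and 4362 and 5071 CPM in SKMEL-5 in hypoxia. In normoxia ENO1 was at 3046 and 1829 CPM, 2521 and 3202 CPM and 2972 and 3328 CPM in these lines. All hypoxic values were higher, by 0.96 ± 0.27 (adjusted p = 0.110). The log2 ratio of ENO2 to ENO1 was higher in hypoxia by 1.17, 2.49 and 2.43 in A2058, A375 and SKMEL-5, with an overlap in A2058. ENO3, the muscle enolase, differed by 0.07 ± 0.31 (adjusted p = 0.936).

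PKM, the pyruvate kinase of the last ATP-yielding step, was at 4618 and 6191 CPM in A2058, 4672 and 6382 CPM in A375 and 3219.6 and 6021 CPM in SKMEL-5 in hypoxia. In normoxia PKM was at 3385 and 2944 CPM, 3060.1 and 4148 CPM and 3692 and 3764 CPM in these lines. The pairs were separate in A2058 and A375 and overlapped in SKMEL-5, and the difference was 0.57 ± 0.26 (adjusted p = 0.273). The counts are per gene and cannot separate the M1 and M2 transcripts.

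PGAM1, the mutase before enolase, was at 207 and 307 CPM in A2058, 171 and 246 CPM in A375 and 118 and 248 CPM in SKMEL-5 in hypoxia. In normoxia PGAM1 was at 159.5 and 87.9 CPM, 87.5 and 100.01 CPM and 147 and 114 CPM in these lines. It overlapped in SKMEL-5 only, with a difference of 0.90 ± 0.26 (adjusted p = 0.118). Of its 50-base words 30.5% are shared with 8 other genes. PGAM2, the muscle mutase, had 1 to 89 counts per library and lies wholly over DBNL on the opposite strand, so its difference of 1.87 ± 0.75 (adjusted p = 0.221) is uncertain.

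The enzymes that set fructose 2,6-bisphosphate, the activator of phosphofructokinase-1, did not pass in the 3-line mean. PFKFB4 was at 225 and 335 CPM in A2058, 75.8 and 190.0 CPM in A375 and 125 and 210.5 CPM in SKMEL-5 in hypoxia. In normoxia PFKFB4 was at 92.9 and 49.9 CPM, 50.4 and 32.8 CPM and 98.7 and 32.7 CPM in these lines. Each line was separate, although normoxic SKMEL-5 library 1 was above hypoxic A375 library 1. The difference was 1.67 ± 0.35 (adjusted p = 0.0524), and 1.82 without the libraries that stood apart.

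PFKFB3, which has the highest kinase to phosphatase activity of the family, was at 271 and 347 CPM in A2058, 71.6 and 137 CPM in A375 and 78.7 and 142 CPM in SKMEL-5 in hypoxia. In normoxia PFKFB3 was at 92.7 and 127 CPM, 77.8 and 117 CPM and 79.5 and 123 CPM in these lines. Only A2058 was separate, with 1.49 on the log2 scale there and 0.10 and 0.13 in A375 and SKMEL-5, and the mean was 0.57 ± 0.26 (adjusted p = 0.259). The log2 ratio of PFKFB4 to PFKFB3 was higher in hypoxia by 0.51, 1.51 and 1.41 in A2058, A375 and SKMEL-5, with an overlap in A2058.

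PFKFB2, the heart form, differed by 0.19 ± 0.25 (adjusted p = 0.700). TIGAR, a phosphatase known to lower fructose bisphosphate, was at 0.719 to 4.59 CPM in hypoxia and 3.92 to 7.24 CPM in normoxia, with -0.88 ± 0.44 (adjusted p = 0.304). Its hypoxic pair was below the normoxic pair in A2058 and SKMEL-5 and overlapped it in A375. A same-strand gene with 0 counts, ENSG00000285901, lies over 42.6% of TIGAR's exon bases, so the TIGAR level is uncertain. FBP1, the phosphatase of gluconeogenesis, had 0 to 32 counts and a difference of 1.19 ± 0.68 (adjusted p = 0.356).

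The next comparison asked whether the response differed between lines. In edgeR's F test that the 3 differences were equal, 0 of the 33 were called, as were 0% of all genes. None had an unadjusted p under 0.05, where 1.6% of all genes did, and DESeq2 also called 0 (0.0713% of all genes), as did limma-voom. Gaps between lines in the plot of log2 differences, such as 2.14 in A2058 against 0.76 in A375 for SLC2A1, were therefore not shown to be differences between lines.

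The duplicates of a group differed in a similar way in several lines. The 35 genes together took 3.18 and 5.56% of all counts in hypoxic A2058, 6.80 and 3.72% in hypoxic A375 and 6.04 and 3.75% in hypoxic SKMEL-5. In normoxia they took 1.91 and 1.41%, 1.99 and 2.07%, and 2.30 and 1.999%. Every hypoxic share was above every normoxic share, and within each hypoxic pair the higher share was in the library that stood apart. GAPDH held much of these sums, with 1903893 of 42176286 counts in A375 hypoxia 1 and 1688910 of 43212823 in SKMEL-5 hypoxia 1. The order within a hypoxic pair therefore need not hold for the other genes.

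Within hypoxia, ALDOA, ALDOC, GAPDH, ENO2 and SLC2A12 were at least 2-fold higher in the library that stood apart in all 3 lines, 5 of the 33, where 3.71% of all genes were. ENO2 differed by 2.26, 2.90 and 2.002 in log2 units (A2058, A375 and SKMEL-5 in turn), ALDOA by 2.18, 2.77 and 2.31, and GAPDH by 1.76, 2.12 and 1.65. SLC2A6, HKDC1 and TIGAR were at least 2-fold lower there, 3 of the 33, against 4.95% of all genes. A further 10, among them SLC2A3, GPI, PFKL and PFKP, were also higher in all 3 lines, but by under 2-fold in at least 1 of them. The share of all genes with this weaker pattern was not computed, so nothing particular to these genes is read from it. The other 15, with PGK1, LDHA, HK1, HK2, ENO1, PKM and SLC2A1, had no common direction, and PGK1 differed by 0.90, -0.24 and -0.59. These libraries also differed in scaling factor and in mitochondrial share, which was 1.74, 3.32 and 3.13% in them against 1.22, 0.648 and 1.35% in the others, and the part of this in the results was not tested.

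Within normoxia, ALDOC and SLC2A12 were at least 2-fold higher in library 1 than in library 2 in all 3 lines, 2 of the 33, where 2.09% of all genes were, and 0 were 2-fold lower (0.514% of all genes). ALDOC differed by 4.05, 1.60 and 2.93 in log2 units (A2058, A375 and SKMEL-5 in turn) and ENO2 by 2.55, 0.80 and 2.44. A further 8 genes, ENO2 among them with PFKFB4, PGK1 and LDHA, were higher in library 1 by less in at least 1 line, and SLC2A1, SLC2A14, PFKFB3 and HKDC1 were lower in it in all 3. The shares of all genes with these weaker patterns were not computed, so nothing particular to the list is read from them. CA9 was at 19.0 and 0.0826, 4.91 and 0.805 and 9.81 and 0.223 CPM in these pairs. The mitochondrial share was likewise higher in library 1, at 20.1 and 7.64% in normoxic A2058, 4.13 and 2.97% in normoxic A375 and 6.31 and 2.79% in normoxic SKMEL-5, and its part in the results was not tested.

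**Figure D4:**
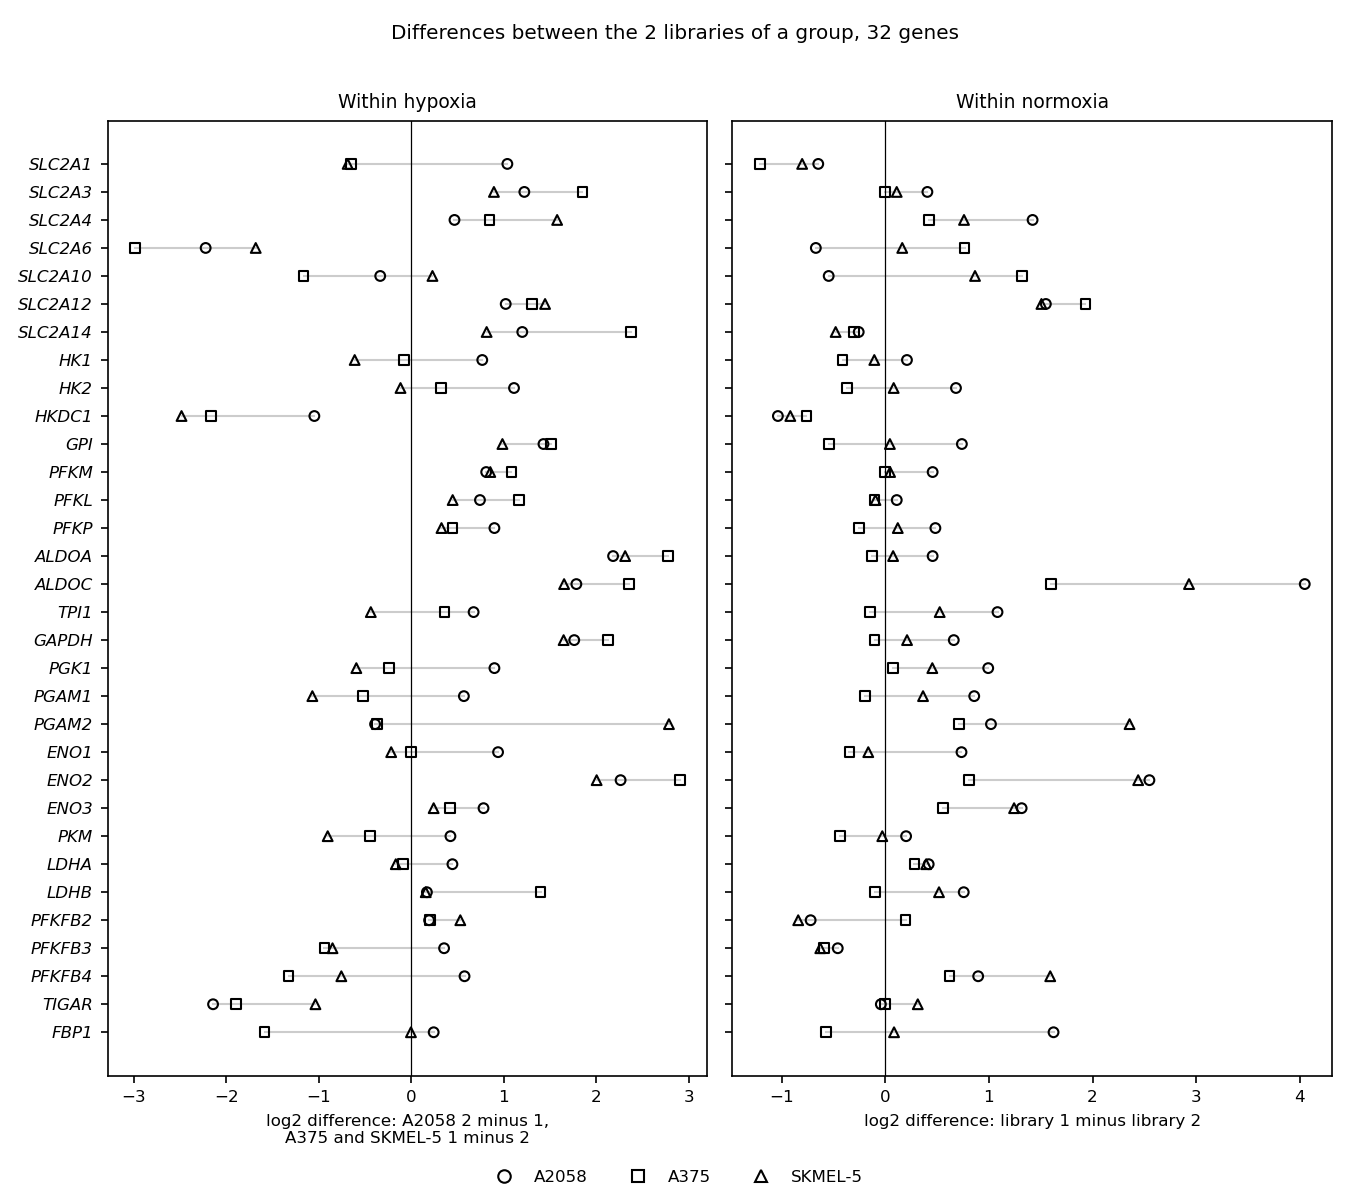
Log2 difference between the 2 libraries of a group for 32 genes, within hypoxia (left, the library that stood apart minus the other) and within normoxia (right, library 1 minus library 2). Symbols are lines and grey bars join them. ALDOA, ALDOC, GAPDH and ENO2 lie to the right of 1 in all lines within hypoxia, and ALDOC differs by up to 4.05 within normoxia.

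The last comparison set A2058 against the mean of A375 and SKMEL-5, averaged over both oxygen conditions. SLC2A4, SLC2A8, SLC2A12, HK1, PFKL, ENO3, PFKFB3 and FBP1 were higher in A2058 and HKDC1 lower. That is 8 of 33 higher, where edgeR called 17.2% of all genes, and 1 of 33 lower, where it called 16.5%, and nothing particular to these genes is read from these counts. SLC2A8, which encodes the intracellular transporter GLUT8, had 119 and 100 counts in hypoxic A2058 and 161 and 146 in normoxic A2058, and 0 counts in all 8 libraries of A375 and SKMEL-5. Its lowest A2058 library (2.505 CPM) was at least 27.8-fold higher than the largest limit that a count of 0 allows in a library (0.0902 CPM, 3 counts).

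The other differences were smaller. PFKL was higher in A2058 by 1.02 ± 0.25 on the log2 scale (adjusted p = 0.00904), HK1 by 0.81 ± 0.23 (0.0178), ENO3 by 1.40 ± 0.32 (0.00556) and PFKFB3 by 0.84 ± 0.27 (0.0311). ENO3 was at 23.7 and 40.7 CPM in hypoxic A2058 and 57.7 and 23.2 CPM in normoxic A2058, and 9.95 to 15.6 CPM in A375 and 7.43 to 18.1 CPM in SKMEL-5. HKDC1 was lower by -2.25 ± 0.61 (0.0146), at 0.769 to 2.48 CPM in A2058 against 2.22 to 10.1 CPM in A375 and 2.41 to 13.7 CPM in SKMEL-5. SLC2A4 (2.28 ± 0.50, 0.00474), SLC2A12 (1.85 ± 0.55, 0.0241) and FBP1 (2.38 ± 0.65, 0.0159) were under 5 CPM in every library. Of the 8, 4 (SLC2A8, ENO3, SLC2A4 and PFKL) were called with the outlying hypoxic libraries dropped and 2 (SLC2A8 and ENO3) without the normoxia 1 libraries. With 1 library left out there were 3 without A2058 hypoxia 2 and 5 without A2058 normoxia 1, and HKDC1 was not called in either. FBP1 was above A375 and SKMEL-5 in hypoxia only, with 7 and 1 counts in normoxic A2058 against 1 to 3 in theirs. In hypoxia, A2058 library 1 was below SKMEL-5 library 1 for SLC2A12 (2.32 against 3.65 CPM). For PFKL it was below A375 library 1 (346 against 392 CPM). PFKFB3 was above A375 and SKMEL-5 in hypoxia only, since its normoxic A2058 libraries (92.7 and 127 CPM) overlapped theirs (77.8 to 123 CPM). Its call was lost in 6 of the 12 fits without 1 library, those without A2058 hypoxia 1, A2058 hypoxia 2, A2058 normoxia 2, A375 normoxia 1, SKMEL-5 hypoxia 1 or SKMEL-5 normoxia 1. Opposite-strand genes of higher count lie over exons of some genes called here. They are TBPL1 over 38.9% of SLC2A12's exon bases, PCAT7 over 16.3% of FBP1's, PFN1 over 2.59% of ENO3's and YBX2 over 0.148% of SLC2A4's. The strand setting is not given, so these calls are uncertain.

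Genes next to the pathway were read from lists chosen for their function. Of 11 tested relatives of the same families 0 passed in hypoxia (median 0.07 on the log2 scale), with SLC2A13, a myo-inositol carrier, at 0.94 ± 0.28 (adjusted p = 0.125). Of 10 pentose phosphate genes 0 passed (median -0.19), with H6PD, the glucose 6-phosphate dehydrogenase of the endoplasmic reticulum, at 1.22 ± 0.29 (adjusted p = 0.0690). Of 7 lactate and pyruvate carriers 0 passed (median 0.25), with the lactate exporter SLC16A3 at 1.04 ± 0.30 (adjusted p = 0.117). Neither did any of 10 genes of the NADH shuttles (median -0.11), led by SLC25A12 at -0.37 ± 0.19 (adjusted p = 0.298), nor any of 7 genes for galactose, fructose and sorbitol (median -0.08), led by AKR1B1, aldose reductase, at -0.55 ± 0.26 (adjusted p = 0.277).

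Of 10 regulators of the pathway, EPAS1, which encodes HIF-2 alpha, rose by 2.75 ± 0.48 (adjusted p = 0.0267) and the other 9 did not pass, with a median of 1.00. HIF1A differed by 0.48 ± 0.25 (adjusted p = 0.320). TXNIP, an arrestin that takes glucose transporters off the cell surface, differed by 4.41 ± 0.98 (adjusted p = 0.0600). Of the 8 hypoxia markers 6 rose, with a median of 2.77. CA9, VEGFA, NDRG1, ADM, ANKRD37, BNIP3 and P4HA1 were higher in hypoxia in every line with no overlap of libraries. EGLN3 was so in A2058 only, at 17.6 and 17.6 CPM against 2.03 and 1.21 CPM. In A375 it was lower in hypoxia, at 6 and 7 counts against 14 and 11, and in SKMEL-5 its libraries overlapped.

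Chromosome 12 holds 8 of the 35. On it GAPDH (from 6533927), TPI1 (from 6867119) and ENO2 (from 6913745) lie close together, with SLC2A14 and SLC2A3 further along. Of the 8, SLC2A3 and SLC2A14 rose and PFKM, TPI1, GAPDH, ENO2, LDHB and TIGAR did not pass. On chromosome 10, HKDC1 (to 69267559) is followed by HK1 (from 69269984).

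Upstream cores were found for 5 of the 7 called genes that have an entry (71.4%), since HK1 and PFKP hold none before the start used. They were also found for 14 of the 23 tested genes with an entry that did not pass (60.9%), against 43.1% of all promoters. These 14 were SLC2A6, SLC2A10, GPI, ALDOA, ALDOC, GAPDH, PGAM2, ENO1, ENO2, ENO3, PFKFB3, PFKFB4, TIGAR and FBP1. Cores thus lay both at genes with high hypoxic values and at SLC2A6 and TIGAR, whose mean differences were below 0.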

How the data were processed

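RNA-seq counts of 12 libraries from A2058, A375 and SKMEL-5 cells in hypoxia and normoxia were used. Per the labels' protocols, an RNeasy kit gave the RNA and the NuGen Universal Plus mRNA kit turned total RNA into libraries. Per the submitters' processing notes, reads on the GRCh38 build went through STAR 2.5.0a, Trim Galore 0.6.1 and bcl2fastq 2.20, in an order not stated. Which counter, strand setting and annotation release were used is not given in the sources used here. Overlapping or near-identical genes may have gained or lost shared reads.

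The authors deposited raw counts per gene with no normalization, in 1 table of 60656 versioned Ensembl IDs, 23267 of them without a count. Symbols matched 60401 IDs with the version ignored (51592 with the same version), and positions and exon lengths of 58438 came from GENCODE 29. All 35 genes matched. Overlaps of exons and shared words of 50 bases were computed from GENCODE 29, and promoters came from RefSeq (GRCh38.p14).

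Counts were tested in R 4.3.3 with edgeR 4.0.16. The filter was filterByExpr (minimum count 10 and minimum total 15, over 6 groups), which 19636 genes passed, and scaling was by TMM. A quasi-likelihood fit over the 12 libraries gave each group its mean (6 residual and 5.02 prior degrees of freedom, common biological coefficient of variation 0.453). Contrasts were hypoxia minus normoxia in each line, their mean, an F test of equal differences, and A2058 minus the mean of A375 and SKMEL-5. Adjustment was Benjamini-Hochberg's, across all tested genes, and p-values under 0.05 were called. Every adjusted p is edgeR's unless another tool is named. The SE is the absolute log2 change over the square root of F. CPM values are TMM-scaled, levels of different genes are compared as CPM per kilobase of exon, and log2 CPM used a prior count of 2. Ratios and shares of isozymes are descriptions with no test. A count of 0 allows up to 3 counts per library, for counting error only.

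The procedure was tested on simulated counts, drawn independently for each gene. They held no shift shared by many genes between duplicates, as the real libraries did, so the simulation did not cover that spread. The real replicates differed by more than counting noise, with a median chi-square per gene of 12.5 (A375 normoxia) to 63.2 (A375 hypoxia). The genes, the neighbouring lists and the libraries left out were chosen with earlier results of these data known. Values are given for all genes called, for the isozyme with the highest level of each step, and for neighbouring lists up to 2 called genes per direction or the gene with the smallest p; isozymes with a large spread and TXNIP were added after their values were seen. Alternatives were DESeq2 1.42.0, its size factors in edgeR, limma-voom (limma 3.58.1), no low-count filter, a filter of 1 CPM in 2 libraries, the mitochondrial genome left out, a replicate block, and subsets of libraries and lines.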

Additional observations from a re-analysis of the deposited data

How the results depend on the processing

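Of the genes higher in the 3-line mean (8 in edgeR), DESeq2 called 18, no low-count filter 20, a replicate block 3 (SLC2A1, SLC2A3 and PGK1), the fit without the 3 hypoxic libraries that stood apart 1, that without the 3 normoxia 1 libraries 0, the mean of A2058 and A375 2 and the mean of A2058 and SKMEL-5 0. Calls over all genes moved too, from 192 of 19636 in the main fit to 1110 with DESeq2 and 78 with the replicate block. With no filter they were 1365 of 37389. For the list, the count was 8 with DESeq2's size factors, with a filter of 1 CPM and without the mitochondrial genome, and 9 with limma-voom. With 1 library left out it was 0 to 15. Of the genes lower in the 3-line mean (0), the fit with no filter called 1, SLC2A6, with 490 of all 37389 genes. Of those higher within A2058 (0), DESeq2 called 8 and no filter 11. Within A375 (0) these fits called 7 and 11, and within SKMEL-5 (0) 3 and 8. The difference between lines had 0 in each fit run. For A2058 against the mean of A375 and SKMEL-5, the 8 higher became 4 without the hypoxic libraries that stood apart, 2 without the normoxia 1 libraries and 3 to 9 with 1 library left out. The 1 lower (HKDC1) became 2 with no filter, 0 without the normoxia 1 libraries and 0 to 2 with 1 library left out. Fits with fewer libraries also have fewer degrees of freedom, and the cause of the other shifts was not tested. Over 42 log2 differences recomputed (33 in the 3-line mean), 112 values lost and 37 gained the threshold, 764 stayed on their side and 21 turned their sign, all of them in 6 genes that were not called in the 3-line mean. Without the hypoxic libraries that stood apart ENO3 was at -0.21, PFKM at -0.24 and SLC2A4 at -0.49. Without the normoxia 1 libraries HKDC1 was at -0.19 and LDHB at 0.14. The mean of A2058 and A375 gave -0.094 for ENO3, 0.13 for LDHB and -0.21 for SLC2A4, and the replicate block -0.038 for HKDC1. With 1 library left out ENO3 ran from -0.10 to 0.35, FBP1 from -0.20 to 1.80, HKDC1 from -0.37 to 0.45, LDHB from -0.37 to 0.088 and SLC2A4 from -0.18 to 0.57. Replicate numbers were shared by the groups of a line, but same-numbered libraries did not deviate together in each line (correlations of -0.304 for A2058, 0.234 for A375 and 0.255 for SKMEL-5), so the replicate block is not the study's design. Depth limits HK3, PFKFB1, PGAM2 and FBP1, which had few counts, and SLC2A8, which had 0 in A375 and SKMEL-5.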
